A study of Mus musculus with 12 samples.

Results

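The CCAAT/enhancer binding proteins (C/EBPs) and interferon regulatory factor 8 (IRF8) were followed through erythro-megakaryopoiesis at the level of mRNA. The 6 genes were taken by name, *Cebpa*, *Cebpb*, *Cebpd*, *Cebpe*, *Cebpg* and *Irf8*, out of 19937 genes with a probe set of a single gene symbol, and each of the 6 is read by 1 such probe set. Expression was measured on 12 arrays of the GeneChip Mouse Gene 1.0 ST type, from 4 biological replicates of each of 3 populations from E14.5 mouse fetal liver. MEG were megakaryocytes grown from KIT+ fetal liver progenitors, first in stem cell factor and thrombopoietin and then in thrombopoietin alone, and enriched with beads on CD41. ERY were erythroblasts taken from fetal liver with beads on Ter119, a surface antigen of maturing red cells. HSPC, the reference for both lineages and labelled as hematopoietic stem cells in the deposit, were cells depleted of lymphoid, myeloid (CD11b, Ly-6G/C) and erythroid (Ter119, CD71) antigens and then sorted for Sca1. MEG were cultured, whereas ERY and HSPC were not, so that culture and lineage cannot be told apart in any comparison with MEG. No population carried a mutation or received a drug, and the strain is not given in the sources used here.

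C/EBP proteins are basic leucine zipper factors that bind DNA as dimers with one another or with related zipper proteins, and C/EBPα is required for the step from multipotent progenitors to granulocyte and monocyte precursors. C/EBPε acts later, in the maturation of granulocytes, whereas C/EBPβ and C/EBPδ are induced by cytokines and inflammation, and C/EBPγ lacks a strong activation domain and serves largely as a dimer partner. IRF8 binds DNA together with the ETS factor PU.1 and favours monocytes and dendritic cells over neutrophils. Erythroblasts and megakaryocytes arise from progenitors that also hold granulocyte and monocyte potential.

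Levels are given as deposited log2 RMA values (1 unit equals 2-fold), and no level of one probe set is set against that of another. Medians of single arrays lay between 5.99 and 6.25. For a background level, the 1027 olfactory receptor genes, which serve sensory neurons of the nose, were averaged over the 12 arrays. Their means had a median of 4.44, and 95% of them lay below 5.92. Within single populations their median was highest in MEG and lowest in HSPC. The *Cebpd* mean lay above the median of its own population by 0.73 in MEG (mean 5.47), 1.14 in ERY (5.63) and 2.73 in HSPC (6.82). Low values are therefore not on the same footing in the 3 populations, and no comparison was adjusted for this. Where the mean of a population lay under the limit of 5.92, its own level is known only to be within background. A fitted difference from it is then not a measured size. The bound given beside such a value ("at least") sets the higher mean against 5.92. It allows neither for the spread of the arrays nor for a background that differs between populations, so it is not a strict minimum. The array medians of 8 megakaryocyte markers were 12.66 to 12.77 in MEG, against 7.36 to 8.18 in ERY and 7.87 to 9.15 in HSPC, and those of 9 erythroid markers were 12.19 to 12.40 in ERY, against 6.36 to 6.69 in MEG and 7.03 to 8.03 in HSPC. The 9 stem and progenitor markers had array medians of 8.46 to 9.42 in HSPC, *Kit* among them; *Ly6a*, which encodes Sca1, was not analysed here.

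Some arrays stood apart from others of their population. On MEG array 3 the median of 10 genes listed for primary (azurophil) granules was 8.33, against 5.84 to 6.72 on the other MEG arrays. *Kit* read 8.30 on that array, against 6.23 to 7.12. HSPC arrays 1 and 2 had a median of 9.22 and 9.42 for the stem and progenitor markers, against 8.71 and 8.46 on HSPC arrays 3 and 4. HSPC array 1 also had the highest erythroid median of its population, 8.03 against 7.03 to 7.05 on the others, and the lowest megakaryocyte median, 7.87 against 8.93 to 9.15. Results for the 6 genes are therefore also given without these arrays where they change.

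Most of the family was lower in both lineages than in HSPC, and *Cebpg* was the exception. In MEG, 5 of the 6 genes passed the thresholds of a more than 2-fold change at an FDR under 5%, with *Cebpa*, *Cebpd*, *Cebpe* and *Irf8* lower and *Cebpg* higher. Over all genes tested in MEG against HSPC, 20.2% passed, 8.77% higher and 11.4% lower. The same 5 genes passed in ERY in the same directions, where 20.6% of all genes passed, 8.35% higher and 12.3% lower. All 6 genes reached the background limit of 5.92 in at least 1 population; among the 12987 genes that did, 17.4% were lower and 12.8% higher in MEG, while in ERY 18.8% were lower and 12.7% higher. As the HSPC arrays are shared, the comparisons are not independent of each other. Since these are bulk RNA samples, fewer cells that express a gene and less of its RNA per cell cannot be told apart.

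**Figure D1:**
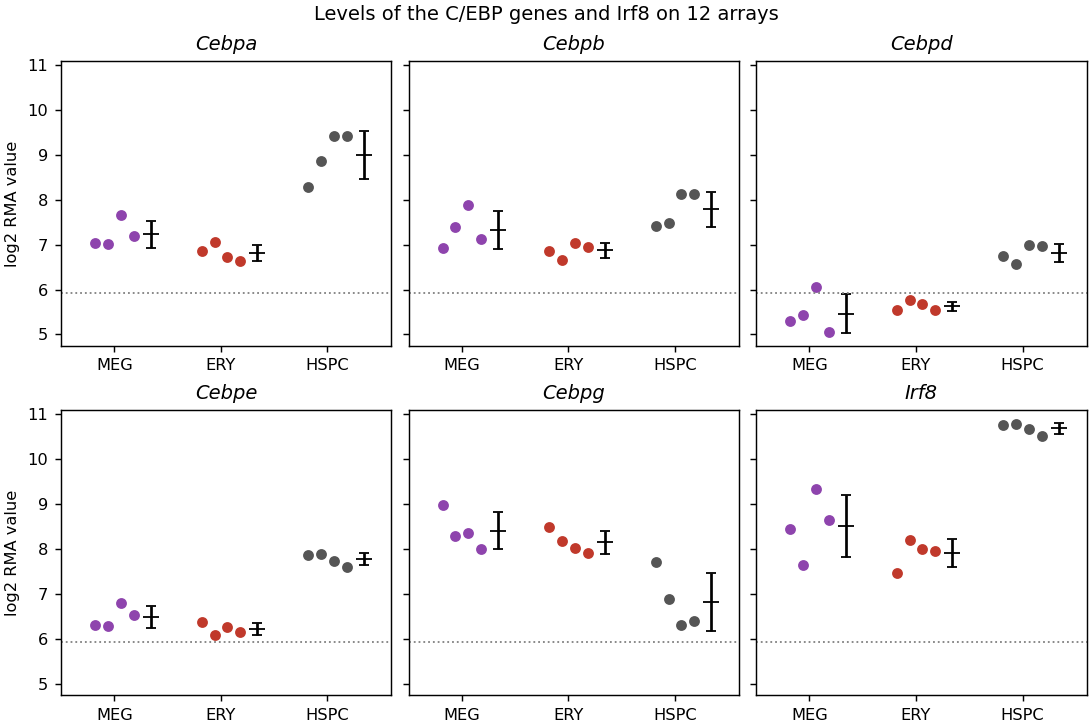
Level of each of the 6 genes on every array (y axis, log2 RMA value; points, arrays 1 to 4 from left to right within each population; bar, mean ± SD, n = 4), with a dotted line at the background limit of 5.92. *Irf8* lay between 7.46 and 9.33 in MEG and ERY and between 10.53 and 10.79 in HSPC, and *Cebpg* was the only one of the 6 with its lowest mean in HSPC.

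*Cebpa*, the granulocyte-monocyte determinant of the family, measured 7.04, 7.02, 7.65 and 7.20 on MEG arrays 1 to 4 and 6.85, 7.06, 6.72 and 6.65 on ERY arrays 1 to 4, against 8.29, 8.88, 9.42 and 9.43 on HSPC arrays 1 to 4. Every MEG and ERY array lay below every HSPC array, while the MEG and ERY arrays overlapped, and MEG array 3 was the highest array outside HSPC. The means were 7.23 ± 0.29 in MEG and 6.82 ± 0.18 in ERY, against 9.0 ± 0.54 in HSPC (SD, n = 4 each). *Cebpa* thus fell 3.42-fold in MEG, with a log2 fold change of -1.77 (95% interval -2.30 to -1.25, limma adjusted p = 0.000135). In ERY it fell 4.54-fold, with a log2 fold change of -2.18 (-2.71 to -1.66, limma adjusted p = 1.98e-05). The transcript remained above background in both lineages, as only 4 of the 1027 olfactory receptor genes had a higher mean in MEG and 8 in ERY. Within HSPC, arrays 3 and 4 were about alike and array 1 was the lowest; without arrays 1 and 2 the log2 fold change was -2.19 in MEG and -2.60 in ERY, and without arrays 3 and 4 it was -1.35 in MEG and -1.76 in ERY.

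*Irf8*, which directs monocyte and dendritic fates, measured 8.45, 7.65, 9.33 and 8.64 on the 4 MEG arrays and 7.46, 8.21, 8.0 and 7.96 on the 4 ERY arrays, against 10.77, 10.79, 10.66 and 10.53 on the 4 HSPC arrays. The HSPC arrays lay close together and above all others, whereas the MEG arrays were spread over more than a 2-fold range with array 3 at the top. The means were 8.52 ± 0.69 in MEG and 7.91 ± 0.32 in ERY, against 10.69 ± 0.12 in HSPC (SD, n = 4 each). The fall was 4.49-fold in MEG (log2 fold change -2.17, 95% interval -2.78 to -1.55, limma adjusted p = 0.000103). It was 6.87-fold in ERY (log2 fold change -2.78, 95% interval -3.40 to -2.16, limma adjusted p = 1.03e-05). Over the omission of single arrays the log2 fold change in MEG ranged over -2.44 to -1.88, at its ends without MEG array 3 and without MEG array 2. As with *Cebpa*, the level in MEG and ERY was still far from background, with 1 of the 1027 olfactory receptor genes above it in MEG and 2 in ERY.

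*Cebpe*, the factor of late granulocyte maturation, measured 6.30, 6.27, 6.80 and 6.52 on the MEG arrays and 6.38, 6.08, 6.27 and 6.14 on the ERY arrays, against 7.87, 7.88, 7.73 and 7.60 on the HSPC arrays. The spread within each population was small and neither lineage reached the HSPC range. The gene fell 2.45-fold in MEG (log2 fold change -1.29, SE 0.14, limma adjusted p = 2.72e-05) and 2.93-fold in ERY (log2 fold change -1.55, SE 0.14, limma adjusted p = 4.08e-06). In both lineages 26 of 1027 olfactory receptor genes had a higher mean, so that *Cebpe* lay at the upper edge of the background there.

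*Cebpd*, an inducible member best known from the acute phase response, measured 5.31, 5.44, 6.07 and 5.05 in MEG and 5.54, 5.76, 5.67 and 5.55 in ERY, against 6.74, 6.56, 6.99 and 6.97 in HSPC. Apart from MEG array 3, all MEG and ERY arrays lay below the limit of 5.92, and 213 of 1027 olfactory receptor genes had a higher mean in MEG and 98 in ERY. The fitted falls of 2.55-fold in MEG (log2 fold change -1.35, SE 0.19, limma adjusted p = 0.000195) and 2.28-fold in ERY (log2 fold change -1.19, SE 0.19, limma adjusted p = 0.000419) were thus falls to within the range of background. Set against the pooled limit, the HSPC mean of *Cebpd* was higher by 1.86-fold, which does not itself reach 2-fold.

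*Cebpb*, the family member of emergency granulopoiesis and macrophage activation, gave the smallest differences of the 6 against HSPC. It measured 6.92, 7.39, 7.88 and 7.13 in MEG and 6.86, 6.66, 7.03 and 6.94 in ERY, against 7.42, 7.49, 8.13 and 8.14 in HSPC. MEG overlapped with HSPC through array 3 alone, whereas all ERY arrays lay below all HSPC arrays. In MEG the log2 fold change was -0.47 (95% interval -0.96 to 0.03, limma adjusted p = 0.135), and it was 0.12 when arrays were centred on ribosomal protein genes, so that no direction was established. Without MEG array 3 it was -0.65 with a limma adjusted p of 0.0323, a difference of under 2-fold. In ERY the difference was 1.90-fold (log2 fold change -0.92, 95% interval -1.42 to -0.43, limma adjusted p = 0.00689), which passed the FDR but not the 2-fold limit. That limit was passed in ERY once HSPC array 1 (-1.05), HSPC array 2 (-1.02) or both (-1.26) were left out.

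*Cebpg*, the dimer partner without a strong activation domain, moved the other way. It measured 8.98, 8.30, 8.36 and 7.99 in MEG and 8.49, 8.17, 8.03 and 7.90 in ERY, against 7.71, 6.89, 6.31 and 6.39 in HSPC. All MEG and ERY arrays lay above all HSPC arrays, with HSPC array 1 the nearest to them. The means were 8.41 ± 0.41 in MEG and 8.15 ± 0.25 in ERY, against 6.83 ± 0.64 in HSPC (SD, n = 4 each). The gene rose 2.99-fold in MEG (log2 fold change 1.58, 95% interval 0.94 to 2.22, limma adjusted p = 0.00124) and 2.5-fold in ERY (log2 fold change 1.32, 95% interval 0.68 to 1.96, limma adjusted p = 0.00385). Its size depended on the HSPC arrays: without arrays 1 and 2 the log2 fold change was 2.06 in MEG and 1.80 in ERY, and without arrays 3 and 4 it was 1.11 in MEG (limma adjusted p = 0.0204) and 0.84 in ERY (limma adjusted p = 0.0586), the last of which did not pass. On array 1 of each population *Cebpg* was at its highest, and in HSPC that was the array with the higher erythroid and lower megakaryocyte marker levels; the part of this in the *Cebpg* values was not tested.

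**Figure D2:**
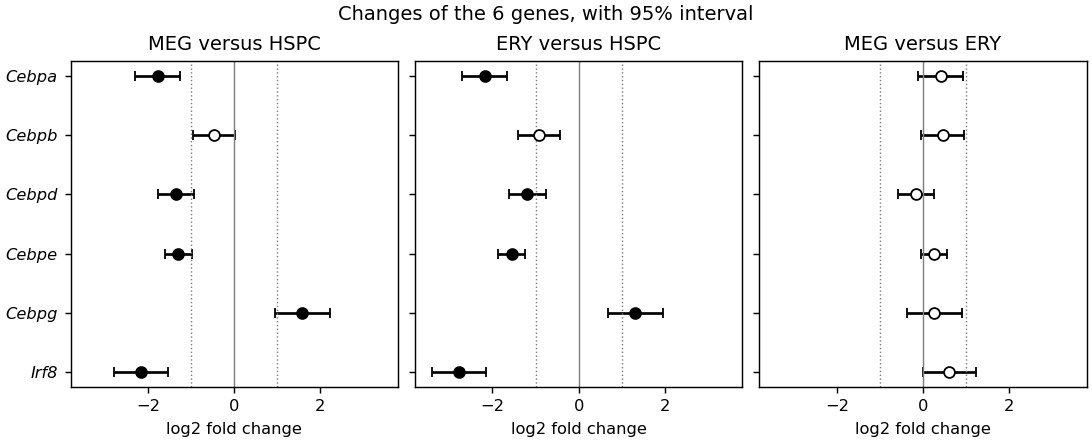
Log2 fold change of each of the 6 genes with its 95% interval (x axis) in MEG against HSPC, in ERY against HSPC and in MEG against ERY; filled points passed a more than 2-fold change at an FDR under 5%, and dotted lines mark 2-fold. *Cebpg* stands alone to the right of 0 against HSPC, and no point is filled in MEG against ERY.

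Counted by separation of the arrays, 5 of the 6 genes had no overlap between MEG and HSPC, as did 29.4% of all genes, and 6 of 6 had none between ERY and HSPC, as did 37.3% of all genes. The median log2 fold change over all genes was -0.02 in MEG and 0.03 in ERY. Centring the arrays on ribosomal protein genes moved these medians by 0.58 in MEG and 0.43 in ERY. Relative to that scale *Cebpa* and *Irf8* still fell and *Cebpg* still rose past the thresholds in both lineages. *Cebpd* did not pass in either lineage and *Cebpe* did not pass in MEG. On that scale 4343 of all genes were higher and 909 lower in MEG, and 2976 were higher and 1382 lower in ERY.

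The direct comparison of MEG with ERY asked whether the lineages differed in these factors. None of the 6 genes was called between them, where 16.5% of all genes were (8.75% higher and 7.77% lower in MEG), and the arrays overlapped for all 6, whereas those of 32.9% of all genes did not. No unadjusted p was under 0.05 either. The nearest was *Irf8*, with a log2 fold change of 0.61 between MEG and ERY (95% interval -0.00 to 1.23, limma adjusted p = 0.151), and it was 0.34 without MEG array 3 (limma adjusted p = 0.372) and 0.90 without MEG array 2 (limma adjusted p = 0.012), the last of which passed the FDR but not the 2-fold limit. The intervals for *Cebpa* (-0.12 to 0.93), *Cebpb* (-0.04 to 0.95), *Cebpd* (-0.59 to 0.26), *Cebpe* (-0.05 to 0.57) and *Cebpg* (-0.38 to 0.90) all held 0 and stayed within 2-fold. For *Cebpa*, *Cebpb*, *Cebpe* and *Irf8* the mean was lowest in ERY, next in MEG and highest in HSPC, and for *Cebpd* the order of MEG and ERY was turned; in all 5 genes these neighbours in the order, MEG and ERY, did not differ beyond their spread. For *Cebpb* the same held for MEG and HSPC. *Cebpg* was lowest in HSPC, next in ERY and highest in MEG, and again MEG and ERY did not differ beyond their spread.

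Across the MEG arrays the members other than *Cebpg* went up together on array 3. That array was the highest of the 4 for *Cebpa*, *Cebpb*, *Cebpd*, *Cebpe* and *Irf8*, and *Cebpg* was highest on array 1. The median of the primary granule genes was highest on the same array (8.33). So were those of the secondary and tertiary granule genes (7.98) and of the macrophage markers (8.22). *Mpo* (myeloperoxidase) read 5.63, 8.01, 10.87 and 6.24 on MEG arrays 1 to 4, and *Ctsg* (cathepsin G) 5.29, 6.90, 9.73 and 5.64. *Ngp*, a secondary granule protein, read 5.49, 7.0, 9.66 and 5.83. Not every granule gene followed, as *Nkg7* read 8.85 on array 3 and 9.08 on array 4. *Spi1*, which encodes PU.1, was highest on MEG array 3 too, at 10.002. Without that array 5 of the 6 genes were called in MEG against HSPC, in the same directions. What part other cells had in the MEG values of the 6 genes was not tested.

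The genes whose pattern over the 12 arrays was most like that of each member were found by Pearson correlation with 12981 genes that reached the background limit. The 12 points are 4 arrays from each of 3 populations, so the coefficients are given as a description only. For *Cebpa* these were *Mical1* (0.989), *Gpr132*, *Smpd2*, *Sh3bp2* and *Fut7* (0.987). For *Cebpe* they were *Rcsd1* (0.988), *Prtn3* (0.988), *Ms4a3*, *Gm10384* and *Elane* (0.983), and *Prtn3* and *Elane* encode the proteases of primary granules, proteinase 3 and neutrophil elastase. *Prtn3* averaged 7.30 in MEG and 6.41 in ERY, against 11.66 in HSPC. For *Irf8* they were *Rftn1* (0.984), *Csf2ra* (0.984), which encodes a chain of the GM-CSF receptor, *Cd33*, *Napsa* and *Xylt1* (0.980). For the inducible *Cebpb* they were *Prdm11* (0.971), *Plekhf1*, *Tnf*, *Ap1s1* and *Fzd8* (0.953), and for *Cebpd* they were *Sdhb* (0.978), *Zhx2*, *Fgd2*, *Ano10* and *Hdc* (0.969). None of these genes was picked for a role. For *Cebpg* they were *Zmym5* (0.987), *Usp33*, *Brox*, *Pnpla8* and *Btbd7* (0.977), all with their lowest mean in HSPC. Among the members themselves the coefficient was 0.964 between *Cebpe* and *Irf8* and 0.929 between *Cebpa* and *Irf8*, and *Cebpg* ran against every other member, with coefficients of -0.88 to -0.73.

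*Cebpa* and *Cebpg* lie next to each other on chromosome 7, with only *Gm45095* and the noncoding RNA gene *Gm35611* between them in the RefSeq gene table, and they changed in opposite directions. Their promoter windows, and the first of 2 of *Irf8*, are shown because these are the called members with an entry in the RefSeq promoter set. Each window holds 300 bases, 250 before and 50 after the annotated start, in GRCm38.p6, and is written 5′ to 3′ along the gene. The set has entries for 4 of the 6 genes, 5 windows in all, with none for *Cebpd* and *Cebpe*. *Cebpg* lies on the minus strand at chr7:35056517-35056816 and its capitals mark the CCAAT boxes, which read ATTGG on this strand. *Cebpa* lies on the plus strand at chr7:35119043-35119342 and its capitals mark the TATA box. *Irf8* lies on the plus strand at chr8:120736108-120736407 and its capitals mark the GAS elements, the letters bound by STAT dimers after interferon-γ.
Cebpg: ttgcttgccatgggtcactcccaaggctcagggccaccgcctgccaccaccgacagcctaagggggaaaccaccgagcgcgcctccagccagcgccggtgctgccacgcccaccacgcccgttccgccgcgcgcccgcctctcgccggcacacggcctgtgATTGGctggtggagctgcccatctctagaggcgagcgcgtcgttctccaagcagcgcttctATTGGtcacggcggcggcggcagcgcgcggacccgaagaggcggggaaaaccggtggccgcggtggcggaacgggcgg
Cebpa: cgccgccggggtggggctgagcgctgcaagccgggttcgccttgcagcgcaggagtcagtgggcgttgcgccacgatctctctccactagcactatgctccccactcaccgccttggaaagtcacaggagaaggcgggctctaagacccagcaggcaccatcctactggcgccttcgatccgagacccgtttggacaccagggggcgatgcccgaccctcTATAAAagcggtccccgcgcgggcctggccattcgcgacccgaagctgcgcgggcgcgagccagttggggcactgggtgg
Irf8: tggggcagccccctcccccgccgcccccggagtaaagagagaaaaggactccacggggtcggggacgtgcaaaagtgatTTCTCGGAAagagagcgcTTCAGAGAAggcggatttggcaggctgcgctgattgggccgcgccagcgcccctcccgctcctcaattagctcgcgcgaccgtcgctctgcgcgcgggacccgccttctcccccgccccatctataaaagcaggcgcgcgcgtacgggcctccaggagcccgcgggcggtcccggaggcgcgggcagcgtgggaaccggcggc

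Both strands of each window were searched for 7 motifs, and the matches printed do not overlap each other. The *Cebpg* window held CCAAT with its first base at -89 and at -28 from the start, a motif found in 37.4% of 32817 promoter windows of the same length. The *Cebpa* window had no CCAAT but held TATAAA at -30, found in 13.6% of windows. The *Irf8* window shown held the GAS letters TTCNNNGAA at -171 and at -153, found at least once in 8.29% of windows. It also held CCAAT at -121 and TATAAA at -31. The other *Irf8* window, not shown, held none of the 7 motifs. The *Cebpb* window held only TATAAA, at 22 bases after the start. None of the 5 windows held an interferon-stimulated element, that is GAAA, any 2 bases and GAAA again (3.43% of windows), the C/EBP letters TTGCNNAA (10.8%), the C/EBP-ATF composite TGATGNAA (3.97%) or GATAA (25.4%). Only exact letters were counted, and the *Cebpa* window does hold TTGCGCCA, which departs from TTGCNNAA by C in place of an A. A match is a run of letters and was not tested as a binding site, and the lack of a match does not show that a site is absent.

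Relatives of the C/EBPs had no common direction. Of 11 measured zipper partners and Tribbles genes, 1 was higher and 2 were lower in MEG against HSPC. In ERY 1 was higher and 3 were lower. Among all genes above the background limit, 17.4% were lower and 12.8% higher in MEG, and 18.8% lower and 12.7% higher in ERY. These shares are also the ones to set beside the counts of the lists that follow. *Ddit3*, which encodes CHOP, a C/EBP homologue that forms inactive dimers with other C/EBPs, measured 9.95, 9.10, 8.87 and 8.47 in MEG and 8.62, 8.41, 8.77 and 8.66 in ERY, against 7.53, 7.40, 7.46 and 7.40 in HSPC. It rose in both lineages, with a log2 fold change of 1.65 in MEG (limma adjusted p = 0.000245) and 1.16 in ERY (limma adjusted p = 0.00248). Like *Cebpg*, it was highest on MEG array 1. *Nfil3*, a zipper repressor, fell in MEG (-1.15) and further in ERY (-2.63), and *Hlf*, a zipper factor of stem cells, fell in MEG (-2.02, at least 1.93 against the background limit) and in ERY (-1.58). *Dbp*, of the same subfamily as *Hlf*, had a value of -0.22 in MEG and fell in ERY (-1.28), and MEG exceeded ERY by 1.06 in a test of that difference (limma adjusted p = 0.00451), a value of 0.93 without MEG array 1 and 0.97 without ERY array 3, both under 2-fold. *Atf4*, a stress factor that dimerizes with C/EBPγ, did not pass, with -0.09 in MEG and 0.33 in ERY. *Trib1* and *Trib2*, whose products direct C/EBPα to degradation, did not pass against HSPC either; *Trib2* was higher in MEG than in ERY by 1.13 (limma adjusted p = 2.19e-05), or by at least 0.98, as its ERY mean was within background.

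Called genes of the IRF family and among the partners of IRF8 were all lower. Of 14 measured genes besides *Irf8*, 7 were lower in MEG and 6 in ERY, and none was higher at the thresholds in either. *Spi1*, the ETS partner of IRF8, measured 8.07, 8.44, 10.002 and 8.63 in MEG and 7.39, 8.60, 8.07 and 8.33 in ERY, against 11.30, 11.71, 11.77 and 11.91 in HSPC. No MEG or ERY array of *Spi1* reached the HSPC range, and it fell by 2.89 on the log2 scale in MEG (limma adjusted p = 8.64e-05) and by 3.57 in ERY (limma adjusted p = 1.14e-05). *Irf5*, a factor of macrophage activation, fell in MEG (-2.43) and in ERY (-2.23). *Irf1*, an interferon-induced activator, fell in MEG (-1.48) and in ERY (-2.999, at least 2.83), and MEG stayed above ERY by 1.52 (at least 1.35, limma adjusted p = 0.00134). *Irf4*, the closest relative of *Irf8*, changed by -1.03 in MEG and -1.06 in ERY, but with HSPC values of 5.45 to 5.75 it was under the background limit on every array, and it was not called in MEG without MEG array 3 or without HSPC array 2. *Irf2*, *Irf3*, *Irf7* and *Irf9* did not pass in either lineage. *Irf2* had 0.97 in MEG and passed as higher without MEG array 4 (1.03), HSPC array 1 (1.18) or HSPC array 2 (1.10), *Irf7* had 0.65 in MEG and passed as higher without MEG array 1 (1.01), and *Irf3* had -0.95 in ERY and passed as lower without HSPC array 1 (-1.14).

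Of the partners from other families, *Ikzf1*, *Tcf3* and *Etv6* were called between MEG and ERY. *Ikzf1*, which encodes Ikaros, fell by 2.54 in MEG (limma adjusted p = 0.000435) and had a log2 fold change of 0.16 in ERY, a difference of -2.71 between MEG and ERY (limma adjusted p = 0.000242). *Tcf3*, an E protein, fell by 2.01 in MEG and had a value of -0.33 in ERY. *Etv6*, an ETS repressor that interacts with IRF8, went the other way, with 9.54 to 10.21 in MEG and 5.84 to 6.62 in ERY, against 10.46 to 10.64 in HSPC. Its log2 fold change of -0.69 in MEG was under the 2-fold limit, whereas it fell by 4.21 in ERY (limma adjusted p = 1.12e-08). *Batf*, a zipper partner of IRF8, had a value of -0.79 in MEG and fell in ERY (-1.56), but the difference between MEG and ERY, 0.77, was not called (limma adjusted p = 0.00455, under 2-fold). Centred on ribosomal protein genes, the list had 4 lower and 2 higher genes in MEG.

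**Figure D3:**
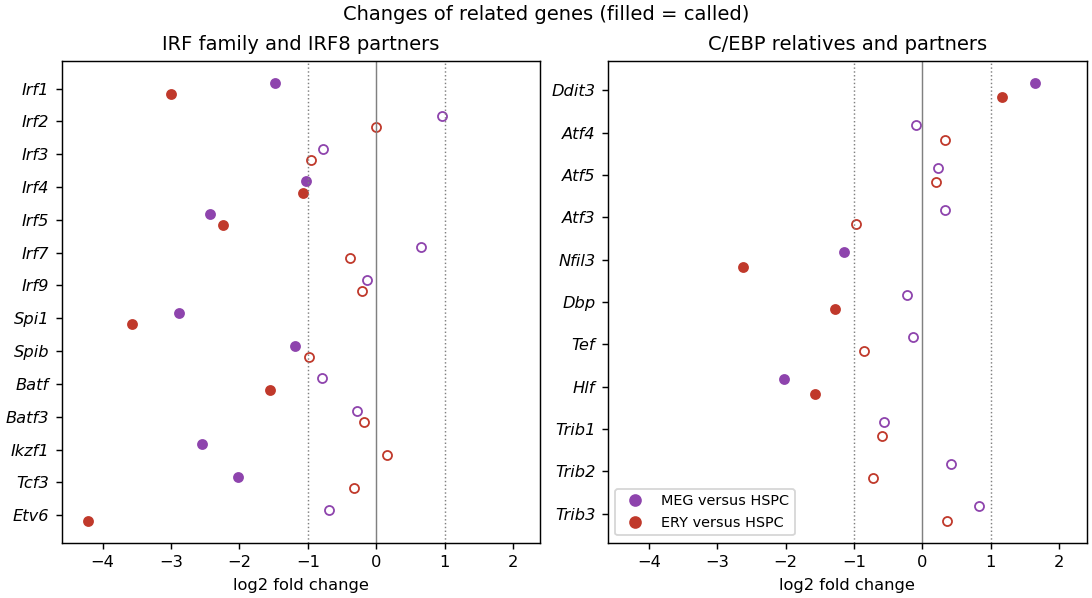
Log2 fold change (x axis) of 14 IRF family genes and IRF8 partners and of 11 C/EBP relatives in MEG against HSPC (purple) and in ERY against HSPC (red); filled points passed a more than 2-fold change at an FDR under 5%, and dotted lines mark 2-fold. Filled points of the IRF list all lie left of 0, and *Ddit3* is the only filled point right of 0.

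Granule genes, among them known targets of these factors in granulocytes, are listed by maturation stage. Of 10 genes on the primary granule list, only some of which are known targets of C/EBPα and PU.1 in promyelocytes, 9 were lower in MEG and 9 in ERY. Their median log2 fold change was -3.37 in MEG and -4.82 in ERY. The count in MEG was also 9 without MEG array 3. *Mpo* measured 5.63 to 10.87 in MEG and 6.91 to 8.16 in ERY, against 12.39 to 12.59 in HSPC, and fell by 4.80 in MEG (limma adjusted p = 0.000817) and by 4.88 in ERY (limma adjusted p = 0.000644). In MEG its log2 fold change was -5.86 without MEG array 3 and -4.12 without MEG array 1. *Elane* fell in MEG (-5.05) and in ERY (-5.20), as did *Ctsg* (-5.10 in MEG, or -6.05 without MEG array 3, and -5.54 in ERY) and *Prtn3* (-4.37 in MEG, -5.25 in ERY). *Cst7*, which encodes the protease inhibitor cystatin F, fell in MEG (-1.18) and in ERY (-4.76, at least 4.75), and so did *Nkg7* (-3.02 in MEG, or -2.35 without MEG array 1, and -5.54, at least 5.42, in ERY); these were the 2 genes of the list higher in MEG than in ERY.

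Secondary and tertiary granule genes, the later targets of C/EBPε, were mostly near background in HSPC as well. Their array medians were 5.98 to 7.98 in MEG and 5.72 to 5.96 in ERY, against 6.02 to 6.24 in HSPC, and the value of 7.98 was that of MEG array 3. Of 14 measured, *Mmp8* was higher and *Pglyrp1* lower in MEG, whereas *Pglyrp1*, *Lyz2* and *S100a8* were lower in ERY. *Mmp8* read 5.07, 6.76, 8.94 and 6.94 in MEG, against 5.55, 4.96, 4.47 and 4.22 in HSPC, so that the populations overlapped. Its fitted rise was 2.13, at least 1.01 against the background limit, and was 1.46 without MEG array 3 and 2.75 without MEG array 1. *Lyz2* (lysozyme) differed between the lineages by 3.38 (MEG minus ERY, limma adjusted p = 6.96e-07), at a mean of 12.33 in MEG and 8.96 in ERY, against 11.49 in HSPC. The MEG count depended on single arrays and ranged over 1 to 3 higher and 1 to 2 lower when each array was left out in turn.

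Other transcription factors of the myeloid network were counted as well. Of 12 besides the members, 3 were lower and 1 was higher in MEG, and 6 were lower in ERY. *Gfi1*, the repressor that works beside C/EBPε in neutrophil precursors, fell in MEG (-2.01, at least 1.90, limma adjusted p = 4.01e-07) and in ERY (-1.67, limma adjusted p = 1.04e-06). *Myb* fell in MEG (-2.67) and in ERY (-3.36). *Runx1*, an activator of *Cebpa*, had a value of 0.36 in MEG and fell in ERY (-2.41), and MEG exceeded ERY by 2.77 (limma adjusted p = 3.74e-09). *Zeb2* rose in MEG (2.20), at 10.31 to 10.92 in MEG, against 7.36 to 9.61 in HSPC. *Klf4*, a monocyte factor downstream of IRF8, stood at -0.99 in MEG and at -0.68 in ERY, both under 2-fold; in MEG it passed as lower without MEG array 2 (-1.02), MEG array 3 (-1.02) or HSPC array 2 (-1.14).

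Receptors for the cytokines of granulocytes and monocytes, several of them C/EBP targets, had no called rise. Of 12 myeloid cytokine receptor genes, 2 were lower in MEG and 7 in ERY, all against HSPC. With 12.8% of genes above the background limit higher in MEG and 12.7% in ERY, so short a list without a rise is unremarkable. The 2 lower genes in MEG are near the share of 17.4% that were lower there. *Csf3r*, the G-CSF receptor and a target of C/EBPα, measured 6.14, 6.63, 8.59 and 6.92 in MEG and 6.15, 6.16, 6.07 and 5.79 in ERY, against 9.56, 9.81, 9.87 and 9.94 in HSPC. It fell by 2.73 in MEG (limma adjusted p = 0.000193) and by 3.75 in ERY (limma adjusted p = 1.2e-05), with MEG array 3 again the nearest to HSPC. *Il3ra* fell in MEG (-1.26) and in ERY (-1.32). *Csf2ra* had a value of -0.91 in MEG, or -1.04 without MEG array 3, and fell in ERY (-1.07), or had -0.97 without ERY array 1. *Csf2rb*, the chain shared by GM-CSF, IL-3 and IL-5 receptors, had a value of -0.14 in MEG and fell in ERY (-2.14), a difference of 2.0 (limma adjusted p = 0.000533). The count in MEG was 4 without MEG array 3 and 5 without MEG arrays 1 and 3, and the count in ERY was 3 when arrays were centred on ribosomal protein genes.

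Genes of monocytes and dendritic cells, the cells that need IRF8, gave 4 lower and 2 higher of 19 in MEG and 7 lower in ERY. *Flt3*, the receptor of dendritic cell progenitors, measured 5.02 to 5.36 in MEG and 5.03 to 5.66 in ERY, against 8.87 to 10.35 in HSPC, and all MEG and ERY arrays were below the background limit. *Cd74*, the invariant chain, fell in MEG (-2.08) and in ERY (-2.64), by at least 1.97 in each. *Clec9a*, a receptor of cross-presenting dendritic cells, ran against the list, with 9.75, 7.39, 6.57 and 8.09 in MEG and 4.58, 4.90, 4.31 and 4.28 in ERY, against 4.35, 4.28, 4.53 and 4.18 in HSPC. It rose by 3.61 on the log2 scale in MEG (limma adjusted p = 0.000137) while the other populations stayed at background, which gives at least 2.03, and by 3.01 without MEG array 1. *Ctss* (cathepsin S) rose by 2.48 in MEG. Unlike *Mpo*, *Ctsg* and *Ngp*, *Clec9a* was lowest on array 3 among the MEG arrays.

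**Figure D4:**
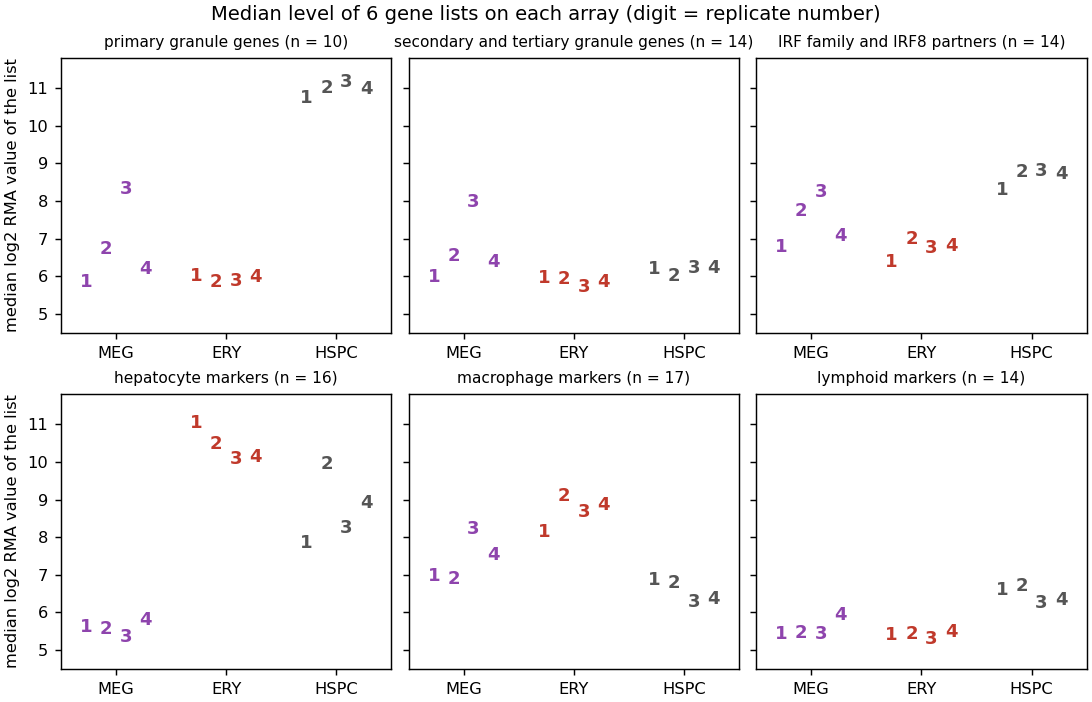
Median log2 RMA value (y axis) of 6 gene lists on each array, with the replicate number as the symbol and MEG, ERY and HSPC from left to right. The primary granule genes had a median of 8.33 on MEG array 3 and of 10.74 to 11.16 in HSPC, hepatocyte markers were highest in ERY, and macrophage markers had their lowest medians in HSPC.

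The amino acid response, in which C/EBPγ is known to act with ATF4, had no common direction. Of 15 genes, 4 were higher and 2 lower in MEG, and 2 were higher and 2 lower in ERY. In MEG the rises were in *Vldlr* (5.13), *Slc7a11* (3.46), *Ddit4* (2.09) and *Sesn2* (1.08, and not called without MEG array 1 or HSPC array 1). *Slc7a11*, the cystine transporter, read 7.25 to 9.10 in MEG and 4.59 to 5.06 in ERY, against 4.57 to 5.08 in HSPC. As *Vldlr* and *Slc7a11* lay within background in ERY and HSPC, these values stand for rises of at least 4.55 and at least 2.44. In ERY the rises were in *Asns*, asparagine synthetase (1.47, limma adjusted p = 0.000204), and *Mthfd2* (1.34). *Phgdh*, the first enzyme of serine synthesis, fell in MEG (-2.67) and in ERY (-2.54). In the direct test 4 of the 15 genes were higher in MEG than in ERY and 3 were lower. Among them *Vldlr*, *Slc7a11* and *Ddit4* were higher, and *Asns* and *Mthfd2* were lower, *Asns* under 2-fold without MEG array 1 (-0.95).

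Acute phase and inflammatory genes, classical targets of C/EBPβ and C/EBPδ, gave 2 higher and 4 lower of 17 in MEG and the same counts in ERY. *Socs3* was higher and *Tnf*, *Hp*, *Lbp* and *Ccl3* were lower in both. Some of these calls rested on single arrays: *Socs3* was not called in ERY without ERY array 2 (0.95) or HSPC array 1 (0.99), *Lbp* not in ERY when any 1 of the ERY arrays or HSPC arrays 2, 3 or 4 was left out, and *Ccl3* not in MEG without MEG arrays 1 or 2, ERY array 2 or HSPC arrays 2, 3 or 4, each taken alone. *Ccl3* had -3.89 in ERY, or -3.22 without ERY array 1, and *Lbp* had -2.40 in MEG, or -3.02 without MEG array 3. *Il1b* rose in MEG, with 5.95, 9.43, 9.55 and 8.59 in MEG and 4.97 to 5.30 in ERY, against 5.0 to 5.09 in HSPC, and MEG exceeded ERY by 3.19 (limma adjusted p = 0.00125), or by 4.004 without MEG array 1; with ERY and HSPC within background the difference was at least 2.46 from each. *Crp* rose in ERY (1.21, at least 0.59, as HSPC was within background). *Lbp* and *Hp* are also made by hepatocytes, and *Hp* by granulocytes. On MEG array 3 *Lbp* read 9.70 and *Hp* 7.49, while the median of the hepatocyte markers was 5.34, the lowest of the MEG arrays. The source of these values was not tested.

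Markers of other cells of the fetal liver moved with the populations. Of 16 hepatocyte markers, 13 were lower in MEG and 14 were higher in ERY, with array medians of 5.34 to 5.81 in MEG and 10.07 to 11.03 in ERY, against 7.84 to 9.95 in HSPC. C/EBPα and C/EBPβ are also factors of hepatocytes. Of 17 macrophage markers, 2 were higher in MEG and 10 in ERY, with array medians of 6.88 to 8.22 in MEG and 8.13 to 9.09 in ERY, against 6.29 to 6.86 in HSPC. *Irf8* and *Spi1* are used by macrophages as well. Of 14 lymphoid markers, 6 were lower in MEG and 7 in ERY, at array medians of 5.43 to 5.94 in MEG and 5.29 to 5.47 in ERY, against 6.26 to 6.70 in HSPC. Lower in each lineage were 3 of 7 eosinophil markers, 2 of 11 mast cell and basophil markers and 4 of 12 endothelial markers. In ERY 3 endothelial markers were higher. The 2 of 11 are near the shares of lower genes among all genes above the background limit (17.4% in MEG, 18.8% in ERY). The part of these cells in the levels of the 6 genes was not tested.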

How the data were processed

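Expression was measured in MEG, ERY and HSPC with 4 biological replicates each. The values deposited by the authors are log2 values from RMA (background correction, quantile normalization and a summary over probes), with version and settings not given in the sources used here. Array intensities were not used, so the number of arrays limits the precision.

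Of 34760 probe sets, 21640 carry 1 gene symbol in the platform annotation, 1321 carry several and 11799 are not listed there; only the first were used. Where a gene had more than 1 probe set (954 of 19937 genes), the one with the highest mean over the 12 arrays was taken. RefSeq gene identifiers matched 19855 genes. One linear model over all 12 arrays gave each population its mean (limma 3.58.1, R 4.3.3), with Benjamini-Hochberg adjustment over 19937 genes, and the fit was tested on simulated data. A gene was called at a more than 2-fold change with an FDR under 5%.

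The 6 genes and the 18 gene lists were chosen with earlier results of these data known, so no count over a list is independent evidence. Members are not counted in lists. Named genes are the 6 members, the 5 genes most like each in pattern, and up to 3 called genes in each direction per list; *Atf4*, *Trib1*, *Klf4*, *Ngp*, *Sesn2*, *Irf2*, *Irf3*, *Irf7*, *Irf9*, and others named for their role or their values on MEG array 3 were chosen after values were seen. Alternatives were a fit of only 8 arrays, a block for the replicate number, the omission of arrays, a filter on low values, other normalizations and centrings, raised low values, the mean over probe sets, other variance models, array weights, a test against 2-fold, 1.5-fold and an FDR of 1%. Chromatin data were not analysed here. Tables and plots used pandas 2.3.3, numpy 2.4.6 and matplotlib 3.10.9 under Python 3.11.15.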

Additional observations from a re-analysis of the deposited data

Results flagged for a closer look

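In none of the 6 genes was an array set off from the other 3 of its population by more than Dixon's critical value. With 4 arrays this test misses all but extreme gaps, so it does not show that the arrays were alike. *Cebpg*, for instance, read 7.71 on HSPC array 1, against 6.31 to 6.89 on the other HSPC arrays. Among 270 groups of 4 arrays, for the 6 genes and 84 other named genes, 16 held an array set off by more than Dixon's critical value for 4, and chance alone sets off about 1 group in 20.

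On MEG array 3 the highest values were those of *Hp* at 7.49, with 5.57 to 5.66 on the other MEG arrays, *Lbp* at 9.70, with 7.04 to 7.41, *Mical1* at 7.13, with 6.63 to 6.69, and *Sh3bp2* at 7.56, with 6.89 to 6.99. *Mical1* and *Sh3bp2* are among the genes most like *Cebpa* in pattern, and *Cebpa* itself was highest on that array, at 7.65. On MEG array 1 *Nkg7* was lowest, at 6.33, with 8.85 to 9.08 on the others.

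On ERY array 1 *Batf* was lowest at 5.84, with 6.12 to 6.15 on the other ERY arrays, as were *Csf2ra* at 7.77, with 8.17 to 8.25, and *Nfil3* at 5.74, with 6.01 to 6.05. *Irf8* was also lowest on ERY array 1, at 7.46. On the same array *Elane* was highest at 7.31, with 6.20 to 6.24, and so was *Usp33* at 9.78, with 9.57 to 9.59. On ERY array 2 *Cd33* was highest at 7.06, with 6.37 to 6.49, and *Phgdh* lowest at 6.84, with 7.88 to 8.08.

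On HSPC array 1 *Ano10* was lowest at 8.33, with 9.004 to 9.12 on the other HSPC arrays, as were *Cd74* at 7.01, with 8.10 to 8.26, and *Hdc* at 9.22, with 9.76 to 9.87. *Xylt1* was highest there at 9.06, with 8.87 to 8.89. *Cebpa* and *Cebpb* had their lowest and *Cebpg* its highest HSPC value on that array as well.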

How the results depend on the processing

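Of 504 log2 fold changes of the 6 genes under 28 alternatives, 485 kept their direction and their side of the thresholds. *Irf8* did so in both lineages against HSPC under all 28, as did *Cebpa* and *Cebpe* in ERY. Not all of these values were free to change. Each gene has 1 probe set and lies above the raised floor, so the mean over probe sets and raised low values left its fold changes unchanged. Leaving out an array of the population not compared altered only the variance. The 1.5-fold limit could not remove a call made at 2-fold. With arrays centred on ribosomal protein genes, 3 of the 6 genes were called in MEG (1 higher and 2 lower), and *Cebpb* had a log2 fold change of 0.12 in MEG against HSPC. That centring raised the share of higher genes among all called ones to 82.7% in MEG and 68.3% in ERY, against 43.5% and 40.5% as deposited; centring on genes above the background limit gave 51.7% and 56.1%, and *Cebpd* was then not called in ERY (-0.94). A test against the 2-fold limit itself (treat), which is stricter by construction, called 1 of the 6 genes in MEG (*Irf8*) and 3 in ERY, and 1019, 1432 and 1331 of all genes in MEG against HSPC, ERY against HSPC and MEG against ERY. A 1.5-fold limit called 6048 genes in MEG. Between MEG and ERY, *Cebpg* had a log2 fold change of -0.0010 without MEG arrays 1 and 3, and *Irf8* one of -0.10 with array weights, an estimate that stopped short of full convergence; the cause was not tested.

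Without single arrays, 5 of the 6 genes were called in MEG each time, 5 to 6 in ERY and 0 between MEG and ERY. Over all genes the counts were 3541 to 4815 in MEG, 3749 to 4804 in ERY and 3106 to 3405 between MEG and ERY. The deviations of like-numbered arrays from their population means had a correlation over 0.1 in 5 of 12 pairs (range -0.35 to 0.36). Coefficients of both signs from so few arrays cannot settle whether replicate numbers pair the arrays. With the replicate number as a block, 5 of the 6 genes were called in MEG, 5 in ERY and 0 between MEG and ERY, and 4009, 4113 and 3299 of all genes. No call of the 6 genes changed with it. The 4 arrays per population and the nearness of *Cebpd* and *Cebpe* to background limit the precision.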
